A study of Mus musculus with 9 samples.

Results

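Interferon-stimulated genes are genes whose transcription is switched on by interferons, and 40 of them were followed here, listed by symbol as known members of this class. All 40 were found among the 24532 genes of the deposited table, and 39 passed the filter on low counts that left 14507 genes to test. The member that did not pass was Oasl1. The samples were keratinocytes, the main cells of the epidermis, isolated from skin of C57BL/6 mice 1, 7 or 14 days after birth. Each age had 3 libraries, 9 in all, made from messenger RNA with a stranded kit. No group carried a transgene, a deletion or a treatment, so age was the only labelled difference. Cells were sorted from fresh skin as negative for CD45.2, a leukocyte surface marker, and for propidium iodide, a dye that enters dead cells. This gate keeps any living skin cell without CD45.2, and no keratinocyte marker was part of it.

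Interferons are secreted proteins that warn cells of infection. Type I and type III interferons act through the kinases Jak1 and Tyk2 and a complex that holds Stat2 and Irf9, which binds the interferon-stimulated response element, or ISRE, in gene promoters. Interferon gamma acts through Jak1 and Jak2, and the promoter element of that route is the gamma-activated site, or GAS. The genes so induced encode sensors of foreign nucleic acid, proteins that block viral translation or replication, GTPases that attack the vacuoles of intracellular pathogens, and brakes on the response. Many are also expressed at a low level with no infection, in epithelia as in other tissues.

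The promoters were examined first because the members share a known route of induction. RefSeq promoter windows, from 250 bases before to 50 after the gene start (build GRCm38.p6), were matched for 30 of the 40 members. The ISRE was searched on both strands as GAAA, any 2 bases and GAAA again, and the GAS as TTCNNNGAA, a pattern that reads the same on both strands. Overlapping matches were allowed. Some genes have more than 1 start, and the 30 members had 34 windows. An ISRE match in at least 1 window was held by 17 of the 30 members, or 56.7%, against 3.99% of 27025 genes with windows of the same length. A GAS match was held by 10 of the 30 members, or 33.3%, against 9.55%. The 6 stretches printed here hold an ISRE match upstream of the start, with the GAAA blocks (TTTC where the match is on the other strand) in capitals. They were chosen after the values were seen, as 4 members that rose and 2 that fell between day 1 and day 14.
Isg15 (chr4:156200845-156200926, minus strand): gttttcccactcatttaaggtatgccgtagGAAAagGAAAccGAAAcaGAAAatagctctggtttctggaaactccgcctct
Gbp2 (chr3:142620574-142620643, plus strand): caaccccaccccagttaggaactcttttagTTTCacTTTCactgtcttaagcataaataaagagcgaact
Igtp (chr11:58199492-58199555, plus strand): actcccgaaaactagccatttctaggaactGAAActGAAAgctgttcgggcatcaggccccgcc
Irgm1 (chr11:48871421-48871480, minus strand): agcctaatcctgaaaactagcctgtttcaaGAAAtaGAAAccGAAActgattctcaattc
Ifit3 (chr19:34583343-34583446, plus strand): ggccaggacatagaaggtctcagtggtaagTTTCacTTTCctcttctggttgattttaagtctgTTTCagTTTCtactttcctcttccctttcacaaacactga
Rsad2 (chr12:26456533-26456602, minus strand): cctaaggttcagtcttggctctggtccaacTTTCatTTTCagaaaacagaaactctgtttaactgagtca
The Isg15 stretch holds 3 overlapping matches, those of Irgm1 and Ifit3 hold 2 each, and the other three hold 1. A match describes the letters in the window and shows neither binding nor use. Only these exact letters were searched, so a window without a match may still hold an element of other spelling or spacing.

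Read counts were scaled to CPM, that is relative to library size after TMM normalisation. Library totals ran from 50670191 to 62970768 counts. The 3 pairs of days were tested with edgeR's quasi-likelihood test, with Benjamini-Hochberg adjustment over the 14507 genes, and an adjusted p under 0.05 was taken as a change. Nothing in the labels ties a library to an animal or a pool, so a p-value here reflects only how far libraries of 1 age differ, which may be technical. In sorted bulk RNA, fewer cells of a type and less RNA per cell cannot be told apart. Libraries are called here by the numbers in their column headers, which are 4 to 6 for days 1 and 14 and 1 to 3 for day 7. Day 7 has headers of another style, and whatever that reflects cannot be told apart from age.

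The members moved in both directions, and the balance differed by subgroup. From day 1 to day 7, 16 of the 39 tested members rose and 6 fell, or 41% and 15.4%, beside 25.5% and 24.0% of all genes tested (56.4% of members and 49.4% of all genes in either direction). From day 7 to day 14, 14 rose and 3 fell, or 35.9% and 7.69%, beside 32.5% and 35.1% of all genes (43.6% and 67.6% in either direction). Over the whole span from day 1 to day 14, 19 rose and 7 fell, or 48.7% and 17.9%, beside 35.5% and 38.4%. In 1 test for any difference over the 3 days, 26 of 39 members passed, beside 82.1% of all genes. The share of members changed in either direction over the whole span, 66.7%, lay under the background of 73.9%. Rises made up 72.7%, 82.4% and 73.1% of the members' changes in the 3 comparisons, beside 51.5%, 48.1% and 48.1% of those of all genes. The median log2 fold change of the members was -0.02, 0.39 and 0.53 in the 3 comparisons, beside -0.00053, -0.03 and -0.05 for all genes. When each gene was tested against a 1.5-fold change, 6 members rose and 3 fell in the first week (15.4% and 7.69%, beside 5.34% and 6.98% of all genes). In the second week 7 rose and 1 fell (17.9% and 2.56%, beside 13.1% and 8.86%), and over the span 16 rose and 5 fell (41% and 12.8%, beside 18.1% and 16.8%). Scaling by library totals alone, without TMM factors, moved the median of all genes to -0.10, -0.21 and -0.32 and left rises at 35.7%, 34.9% and 31.9% of all changes. The members then had 12 rises and 7 falls, 12 and 6, and 17 and 9.

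**Figure D1:**
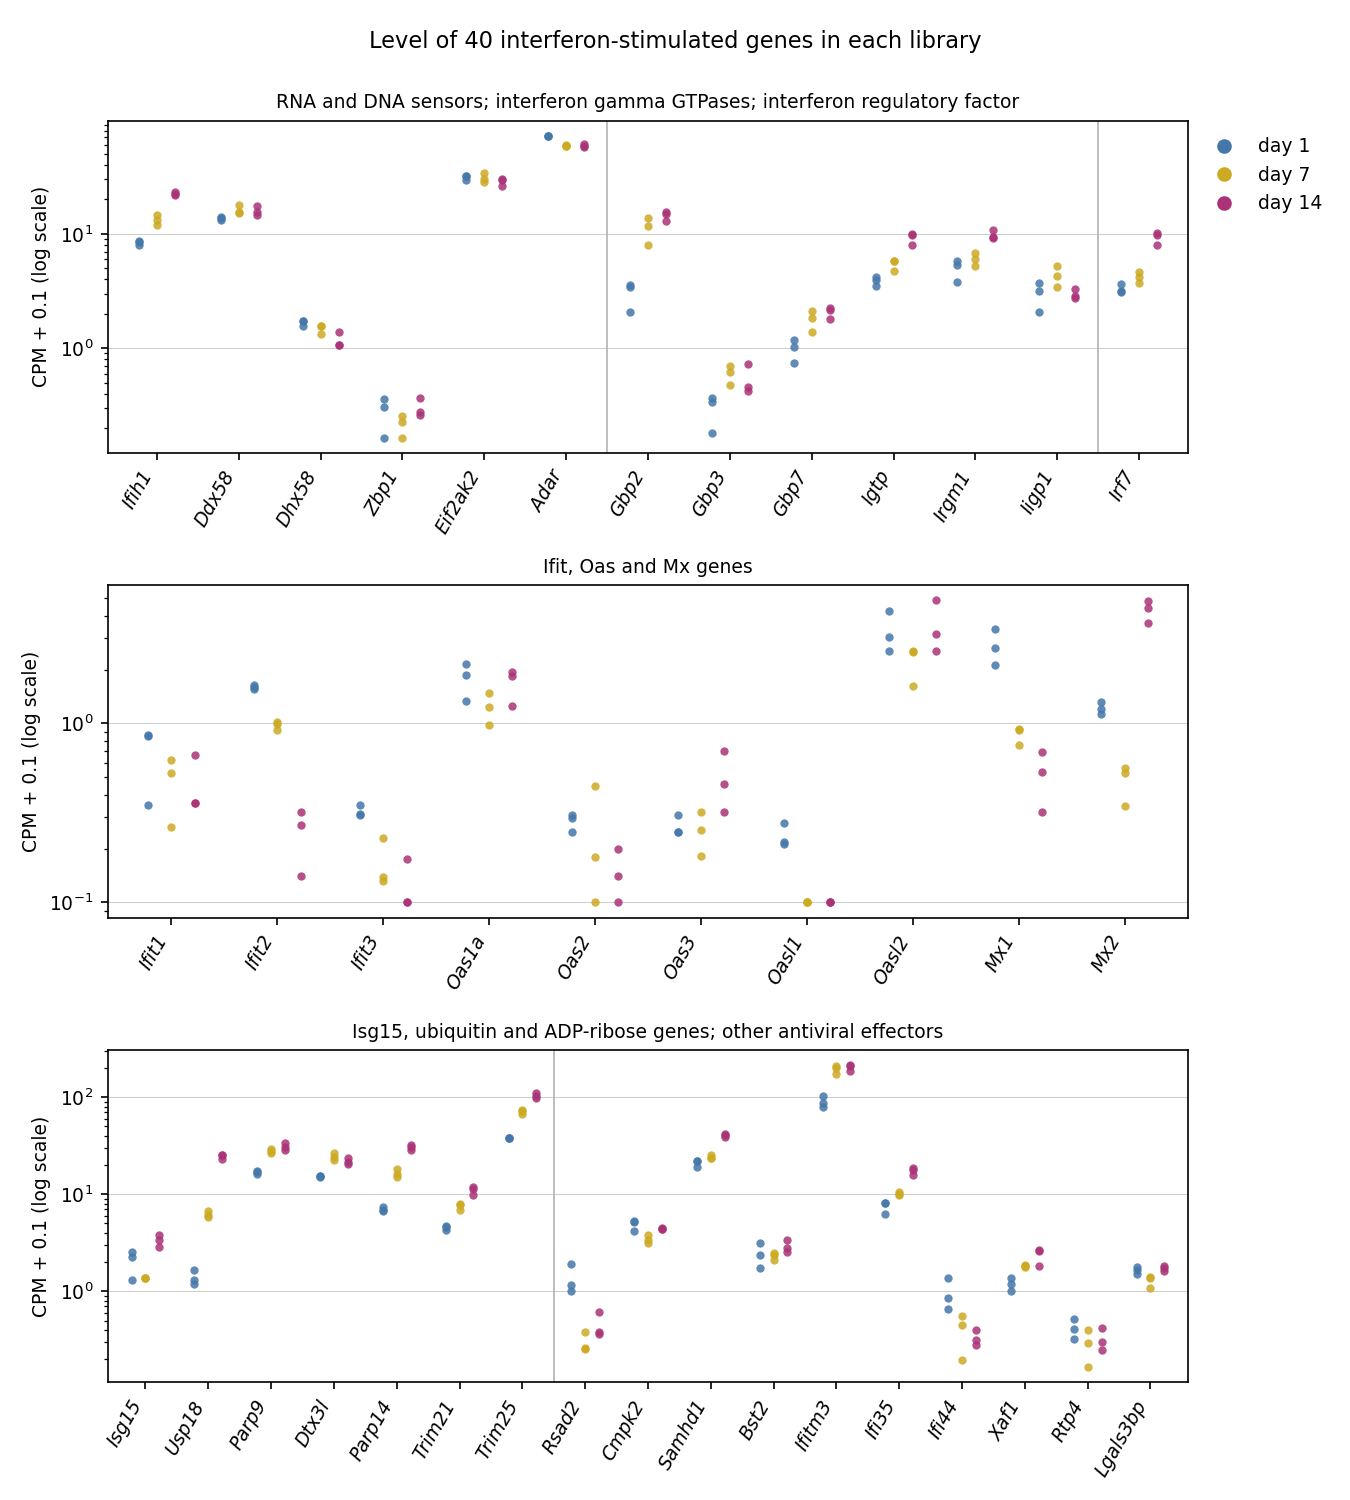
CPM plus 0.1 on a log scale for each of the 40 members, with 1 point per library and the 3 days in separate colours. Usp18, Parp14 and Trim25 step upwards from day to day, while Ifit2 and Mx1 step downwards and Mx2 is lowest at day 7.

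The members were mostly low in these cells. Levels were compared between genes as CPM per kb of exon (GENCODE M21 basic annotation), since long genes draw more reads. On this scale 21 of the 40 members had a mean under 1 at day 1, 19 at day 7 and 18 at day 14, and the median member stood at 0.928, 1.2 and 1.54 CPM per kb. Of the 39 tested, 35 lay in the lower 50% of the 14086 tested genes with an exon length. Ifitm3 was far above the rest at 133 ± 18.5, 288 ± 28.9 and 299 ± 23.0 CPM per kb (SD, n = 3 libraries a day). Next in the order of means over all 9 libraries came Trim25, Adar, Ifi35 and Parp9. Trim25 was below Adar at day 1, at 6.57 ± 0.035 against 11.96 ± 0.0853 CPM per kb, and above it at day 7, at 12.3 ± 0.632 against 9.81 ± 0.0689.

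Among the 6 sensors of foreign RNA and DNA, the sum stayed level while single members moved. The summed level ran from 124 to 128 CPM at day 1, from 117 to 127 at day 7 and from 122 to 129 at day 14, so the days overlapped. Most of this sum was Adar and Eif2ak2, with means of 71.8 and 31.2 CPM at day 1, so it says little of the other sensors. Of the 6, 2 rose and 1 fell in the first week, 1 rose in the second, and 2 rose and 2 fell over the whole span. Of all genes tested, 25.5% rose and 24.0% fell in the first week, 32.5% and 35.1% in the second, and 35.5% and 38.4% over the span.

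Ifih1 (chr2:62595618-62646255), which encodes MDA5, the sensor of long double-stranded RNA, had 7.94, 8.49 and 8.41 CPM in the day 1 libraries. It had 11.9, 13.1 and 14.6 CPM at day 7 and 21.7, 22.9 and 22.3 CPM at day 14. The 3 days did not overlap, and each was above the one before. The log2 fold change was 0.67 ± 0.08 (SE) in the first week (adjusted p = 2.94e-05) and 0.76 ± 0.08 in the second (adjusted p = 4.36e-06). Ddx58, which encodes RIG-I, the sensor of RNA with a 5′ triphosphate, moved little. Its libraries held 14.1, 13.2 and 13.7 CPM at day 1, 15.4, 15.2 and 17.8 at day 7, and 14.5, 17.3 and 15.5 at day 14. The later days were both above day 1 and overlapped each other. Its first-week log2 fold change of 0.24 ± 0.09 passed narrowly (adjusted p = 0.035) and did not pass without library 5 or 6 of day 1 or library 3 of day 7 (adjusted p from 0.0729 to 0.159). That from day 1 to day 14, 0.21 ± 0.09 (adjusted p = 0.0436), did not pass without any 1 of 7 libraries, those other than day 7 library 3 and day 14 library 4 (0.0567 to 0.216), and with library totals alone it turned to -0.06.

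Dhx58, which encodes LGP2, a regulator of both RNA sensors, had 1.63, 1.45 and 1.64 CPM at day 1 and 1.45, 1.24 and 1.45 at day 7. At day 14 its libraries held 1.3, 0.961 and 0.975 CPM, all below day 1. The log2 fold change over the span was -0.54 ± 0.22 (adjusted p = 0.044), and it did not pass without any 1 of the day 1 libraries, day 7 library 1 or day 14 library 5 or 6 (0.0504 to 0.113). Adar (chr3:89714469-89753455), whose product edits double-stranded RNA so that the cell's own RNA escapes the sensors, was the highest of the 6 per kb. It had 71.6, 71.3 and 72.3 CPM at day 1, against 59.3, 58.9 and 58.4 at day 7 and 58.8, 57.2 and 60.7 at day 14. It fell by 0.29 on the log2 scale in the first week (SE 0.04, adjusted p = 0.000112), with no overlap, and days 7 and 14 overlapped. The second-week value was 0.00 ± 0.04 (adjusted p = 0.995), or -0.17 with library totals alone. Of the 75-base stretches of Adar, 17.8% are shared with other genes, mostly Chrnb2, so its counts are uncertain to that extent. Eif2ak2, which encodes the kinase PKR that halts translation on double-stranded RNA, did not pass in any comparison, with means of 31.2, 30.8 and 28.4 CPM. Zbp1, a sensor of Z-form nucleic acid, was near the floor at 0.177, 0.115 and 0.201 CPM and did not pass either.

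The Ifit, Oas and Mx genes, which encode proteins that trap viral RNA, activate RNase L or block viral particles, were low, and their members took opposite courses. In the first week none of the 9 tested members rose and 2 fell, beside 25.5% and 24.0% of all genes. In the second week 2 rose and 2 fell, beside 32.5% and 35.1%. Over the whole span 1 rose and 3 fell, beside 35.5% and 38.4%. The summed level of the subgroup ran from 9.11 to 13.4 CPM at day 1, from 4.75 to 6.77 at day 7 and from 8.60 to 13.2 at day 14. Day 7 was thus below both other days without overlap, and days 1 and 14 overlapped.

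The neighbours Mx1 and Mx2 on chromosome 16 differed in course. Mx1 (chr16:97447035-97462906), whose C57BL/6 allele is known to make no working protein, had 2.03, 2.54 and 3.25 CPM at day 1. It had 0.837, 0.815 and 0.658 CPM at day 7 and 0.22, 0.434 and 0.597 at day 14. The days did not overlap and ran downwards. The first-week log2 fold change was -1.75 ± 0.32 (adjusted p = 0.000639). The second-week one, -0.88 ± 0.35 (adjusted p = 0.0394), did not pass without day 1 library 5, day 7 library 1 or 2, or day 14 library 4 or 5 (0.0521 to 0.121). Over the whole span Mx1 fell by 2.64 on the log2 scale (SE 0.34, adjusted p = 1.61e-05).

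Mx2 (chr16:97536081-97560901) had 1.04, 1.11 and 1.22 CPM at day 1, 0.426, 0.245 and 0.464 at day 7, and 4.31, 4.75 and 3.52 at day 14. All 3 days stood apart, with day 7 lowest and day 14 highest. It fell with Mx1 in the first week (log2 fold change -1.57 ± 0.26, adjusted p = 0.000346). It then rose by 3.47 ± 0.26 (adjusted p = 2.13e-07), or 11.1-fold. In CPM per kb, Mx2 was 0.524 to 0.714 times Mx1 at day 1, 0.419 to 0.987 times at day 7 and 8.25 to 27.4 times at day 14.

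Ifit2 (chr19:34550550-34576534), whose product binds viral RNA and inhibits translation, had 1.46, 1.54 and 1.5 CPM at day 1, 0.821, 0.913 and 0.890 at day 7, and 0.0399, 0.170 and 0.219 at day 14. The days ran downwards with no overlap. Its first-week log2 fold change of -0.78 ± 0.35 did not pass (adjusted p = 0.0813, or 0.0218 without day 14 library 4). That first-week fall also passed with DESeq2, with limma-voom and in a fit of only the 2 days compared. Ifit2 fell by 2.59 in the second week (SE 0.42, adjusted p = 0.000166). Ifit3, which joins Ifit1 in binding RNA, was at 17, 13 and 13 counts at day 1, at 2, 8 and 2 at day 7, and at 0, 4 and 0 at day 14, so its fitted fold changes at day 14 rest on 4 counts in 1 library. All day 1 libraries were above the later ones, which overlapped each other. Its fall from day 1 to day 14, -3.01 ± 0.99 on the log2 scale (adjusted p = 0.0154), did not pass without day 14 library 4 or 6 (-2.49 and -2.48, adjusted p = 0.0549 and 0.0555), and without day 14 library 5 it was -6.73. Its second-week value of -1.31 did not pass (adjusted p = 0.326), except without day 14 library 5, where it was -5.03 (0.0457), and it was -0.41 without day 7 library 2. Of its transcript sequence, 41.1% of 75-base stretches are shared with other genes, mostly Ifit3b, so its counts are uncertain.

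Oas3, a sensor-enzyme that makes the 2-5A messenger, had 0.148, 0.209 and 0.146 CPM at day 1, 0.221, 0.0815 and 0.155 at day 7, and 0.22, 0.603 and 0.358 at day 14. Days 7 and 14 overlapped. The second-week log2 fold change of 1.36 ± 0.56 (adjusted p = 0.0489) did not pass without any 1 of 7 libraries, those other than day 7 library 1 and day 14 library 4 (0.0683 to 0.245), and that over the whole span (adjusted p = 0.0624) passed without day 14 library 4 (0.0396). Oasl1, which restrains Irf7 translation, had 8, 7 and 11 counts in the day 1 libraries and 0 in the 6 later ones, where 0 counts allow up to 3, or 0.0514 CPM on average at day 7. It was not tested. Ifit1, Oas1a, Oas2 and Oasl2 did not pass in any comparison. Oasl2, the highest of these per kb, had means of 3.18, 2.13 and 3.42 CPM, and its second-week adjusted p of 0.0522 passed without day 1 library 6 (0.0443) or day 14 library 6 (0.0229). Counts of Oas1a are uncertain because 47.6% of its 75-base stretches are shared with other genes, mostly Oas1g.

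**Figure D2:**
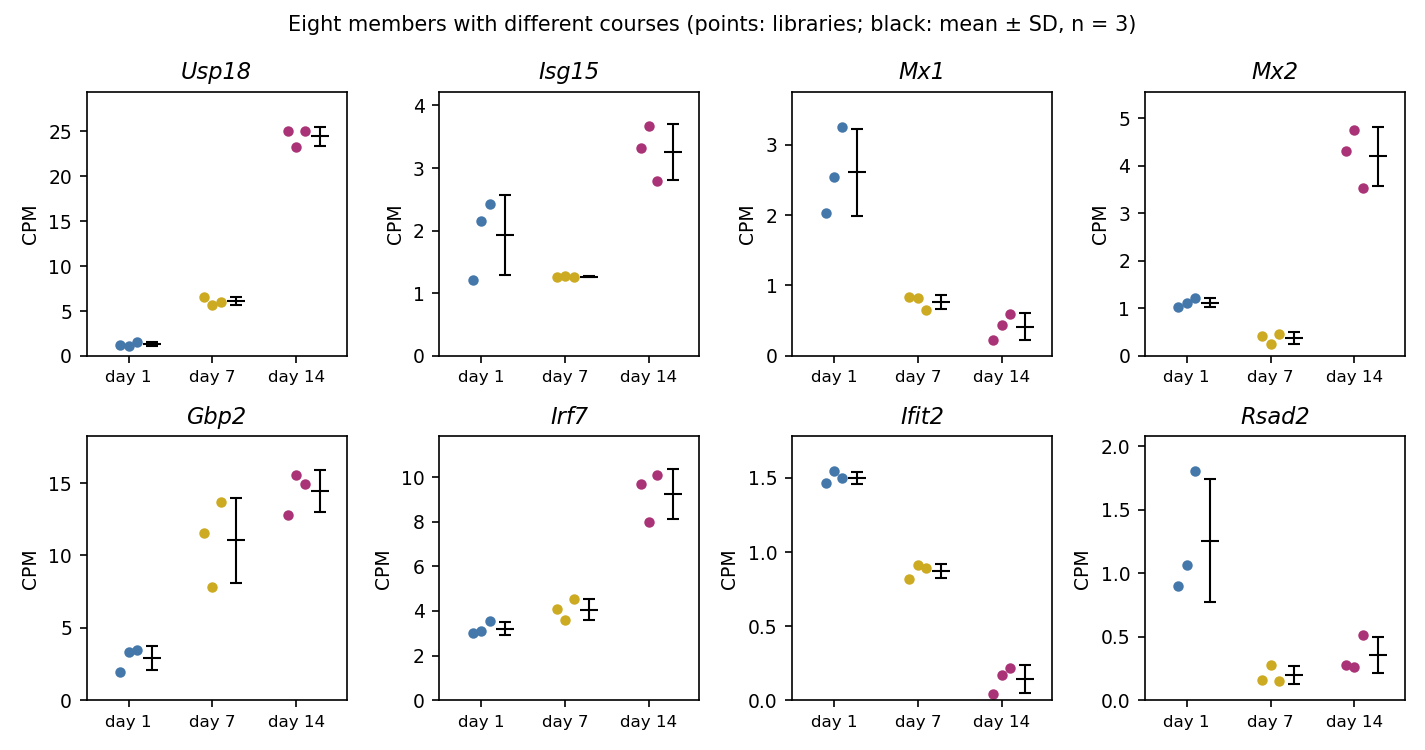
CPM on linear axes from 0 for Usp18, Isg15, Mx1, Mx2, Gbp2, Irf7, Ifit2 and Rsad2, with 1 point per library and the mean ± SD (n = 3) in black. Usp18 climbs at each day, Mx1 and Ifit2 descend at each day, and Isg15 and Mx2 are highest at day 14.

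Of the 6 GTPases known for their induction by interferon gamma, 4 rose in the first week, beside 25.5% of all genes. None fell, beside 24.0%. In the second week 2 rose and 1 fell, beside 32.5% and 35.1%. Over the whole span 4 rose with none falling, beside 35.5% and 38.4%. The median log2 fold change of the 6 from day 1 to day 14 was 1.14. The summed level ran from 13.4 to 18.1 CPM at day 1, from 22.6 to 33.4 at day 7 and from 35.2 to 40.6 at day 14, with no overlap between days. All 5 members with a matched promoter held an ISRE match.

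Gbp2 (chr3:142620663-142638008), a guanylate-binding protein that coats pathogen vacuoles, had 1.95, 3.33 and 3.50 CPM at day 1, 11.6, 7.84 and 13.7 at day 7, and 12.8, 15.6 and 14.9 at day 14. Both later days were above day 1 and overlapped each other. The first-week log2 fold change was 1.92 ± 0.26 (adjusted p = 0.000346), and the second-week value of 0.39 ± 0.24 did not pass (adjusted p = 0.181). Gbp7, of the same family and the same cluster on chromosome 3, had 0.636, 0.933 and 1.09 CPM at day 1, 2.02, 1.29 and 1.72 at day 7, and 2.06, 2.15 and 1.71 at day 14. It too was above day 1 on both later days, which overlapped. Its first-week log2 fold change was 0.92 ± 0.26 (adjusted p = 0.0121, or 0.0536 without day 7 library 1), and 11.3% of its 75-base stretches are shared with other genes. Gbp3 was lower per kb, with means of 0.196, 0.499 and 0.433 CPM. Its first-week rise (adjusted p = 0.0464) did not pass without any 1 of the 9 libraries (0.0531 to 0.156).

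The immunity-related GTPases Igtp and Irgm1, on chromosome 11, rose in the second week. Igtp (chr11:58199556-58207592), also named Irgm3, had 3.4, 3.83 and 4.1 CPM at day 1, 5.68, 4.63 and 5.67 at day 7, and 7.95, 9.95 and 9.59 at day 14. Each day was above the one before with no overlap, with log2 fold changes of 0.50 ± 0.13 (adjusted p = 0.00823) and 0.78 ± 0.13 (adjusted p = 0.000189). Igtp overlaps Irgm2 on the same strand, and 7.8% of its 75-base stretches are shared with other genes, mostly Irgm2. Irgm1 (chr11:48865245-48871420), which keeps the other GTPases off the cell's own membranes, had 5.19, 3.67 and 5.74 CPM at day 1, 5.95, 5.09 and 6.71 at day 7, and 9.23, 9.12 and 10.7 at day 14. Days 1 and 7 overlapped and day 14 was above both. Its log2 fold change was 0.28 ± 0.16 in the first week (adjusted p = 0.174) and 0.71 ± 0.16 in the second (adjusted p = 0.0018). Iigp1, an effector GTPase of the same family, had means of 2.87, 4.21 and 2.87 CPM. Its second-week fall (log2 fold change -0.55 ± 0.23, adjusted p = 0.0468) did not pass without any 1 of 6 libraries, those other than day 1 libraries 4 and 6 and day 7 library 2 (0.0502 to 0.174), and its first-week value (adjusted p = 0.0592) passed without day 1 library 6 (0.0267) or day 7 library 2 (0.0324).

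The 7 genes of Isg15 conjugation, ubiquitin ligation and ADP-ribosylation showed the most uniform direction. In the first week 6 rose, in the second 5 and over the whole span all 7, beside 25.5%, 32.5% and 35.5% of all genes. None of the 7 fell in any comparison, beside 24.0%, 35.1% and 38.4% of all genes. The median log2 fold change of the 7 was 0.75, 0.56 and 1.28 in the 3 comparisons. The summed level ran from 83.2 to 85.1 CPM at day 1, from 147 to 162 at day 7 and from 222 to 228 at day 14. Trim25 was the largest part of this sum, with means of 37.8, 70.5 and 104 CPM.

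Usp18 (chr6:121245906-121270917), which removes Isg15 from its targets and brakes signalling at the type I receptor, had the largest change of the members over the whole span. Its libraries held 1.21, 1.09 and 1.55 CPM at day 1, 6.60, 5.71 and 5.98 at day 7, and 25, 23.2 and 25.1 at day 14. The days were far apart against an SD of at most 1.05 CPM within a day. It rose by 2.25 ± 0.12 in the first week (adjusted p = 3.15e-08) and by 2.0 ± 0.11 in the second (adjusted p = 1.07e-08) on the log2 scale. From day 1 to day 14 the rise was 19-fold (adjusted p = 2.54e-11).

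Isg15 itself (chr4:156199424-156200818), the ubiquitin-like protein that Usp18 removes, did not follow that course. It had 1.21, 2.16 and 2.42 CPM at day 1, 1.26, 1.27 and 1.26 at day 7, and 3.32, 3.68 and 2.79 at day 14. Days 1 and 7 overlapped, with day 1 library 4 at the day 7 level, and day 14 was above both. The first-week log2 fold change of -0.61 ± 0.25 did not pass (adjusted p = 0.0609), but it did as a fall without day 1 library 4 (0.00473). It also passed as a fall with DESeq2 and with library totals alone. The second-week rise was 1.37 ± 0.25 (adjusted p = 0.000385), and that over the span was 0.76 ± 0.24 (adjusted p = 0.0134, or 0.0543 without day 14 library 5). In CPM per kb, Usp18 was 0.217 to 0.427 times Isg15 at day 1, 1.92 to 2.23 times at day 7 and 2.70 to 3.84 times at day 14. Isg15 was described library by library because of its role, after its values were seen.

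Trim25 (chr11:88999403-89020294), the ubiquitin ligase that helps RIG-I signal, had 37.6, 38.0 and 37.8 CPM at day 1, 71.6, 66.4 and 73.5 at day 7, and 109.6, 103 and 97.9 at day 14. Parp14 (chr16:35831892-35871518), an ADP-ribosyltransferase, had 6.69, 6.79 and 7.37 CPM at day 1, 16.1, 15 and 18.1 at day 7, and 28.7, 32.1 and 30.5 at day 14. For both genes each day was above the one before with no overlap. Trim25 rose by 0.90 ± 0.05 (adjusted p = 6.93e-08) and then 0.56 ± 0.05 (adjusted p = 1.73e-06) on the log2 scale. Parp14 rose by 1.24 ± 0.08 (adjusted p = 2.02e-07) and then 0.89 ± 0.08 (adjusted p = 1.1e-06). Trim21, a ubiquitin ligase that binds antibody-coated virus, also rose in both weeks, with means of 4.45, 7.47 and 10.8 CPM.

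Parp9 and Dtx3l, whose products form 1 complex of an ADP-ribosyltransferase and a ubiquitin ligase, lie head to head on chromosome 16 and overlap on opposite strands. Parp9 (chr16:35938470-35972621) had 17.1, 17.0 and 16.1 CPM at day 1, 26.7, 27.9 and 29.1 at day 7, and 28.8, 30.4 and 33.5 at day 14. Day 1 was below both later days, which overlapped. It rose by 0.74 ± 0.07 in the first week (adjusted p = 2.72e-06), and the second-week value of 0.15 ± 0.07 did not pass (adjusted p = 0.072, or 0.036 without day 14 library 4). That second-week value also passed with DESeq2 and with another scaling (RLE size factors). Dtx3l had means of 15.1, 24.4 and 21.8 CPM, with a first-week rise of 0.69 ± 0.08 (adjusted p = 1.6e-05). Its second-week value of -0.16 ± 0.08 (adjusted p = 0.0883) passed without day 7 library 1 (0.0236) or day 14 library 5 (0.0382). The strand setting of the counting is not given in the sources used here, and 8.26% of the 75-base stretches of Parp9 and 6.72% of those of Dtx3l are shared with other genes.

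**Figure D3:**
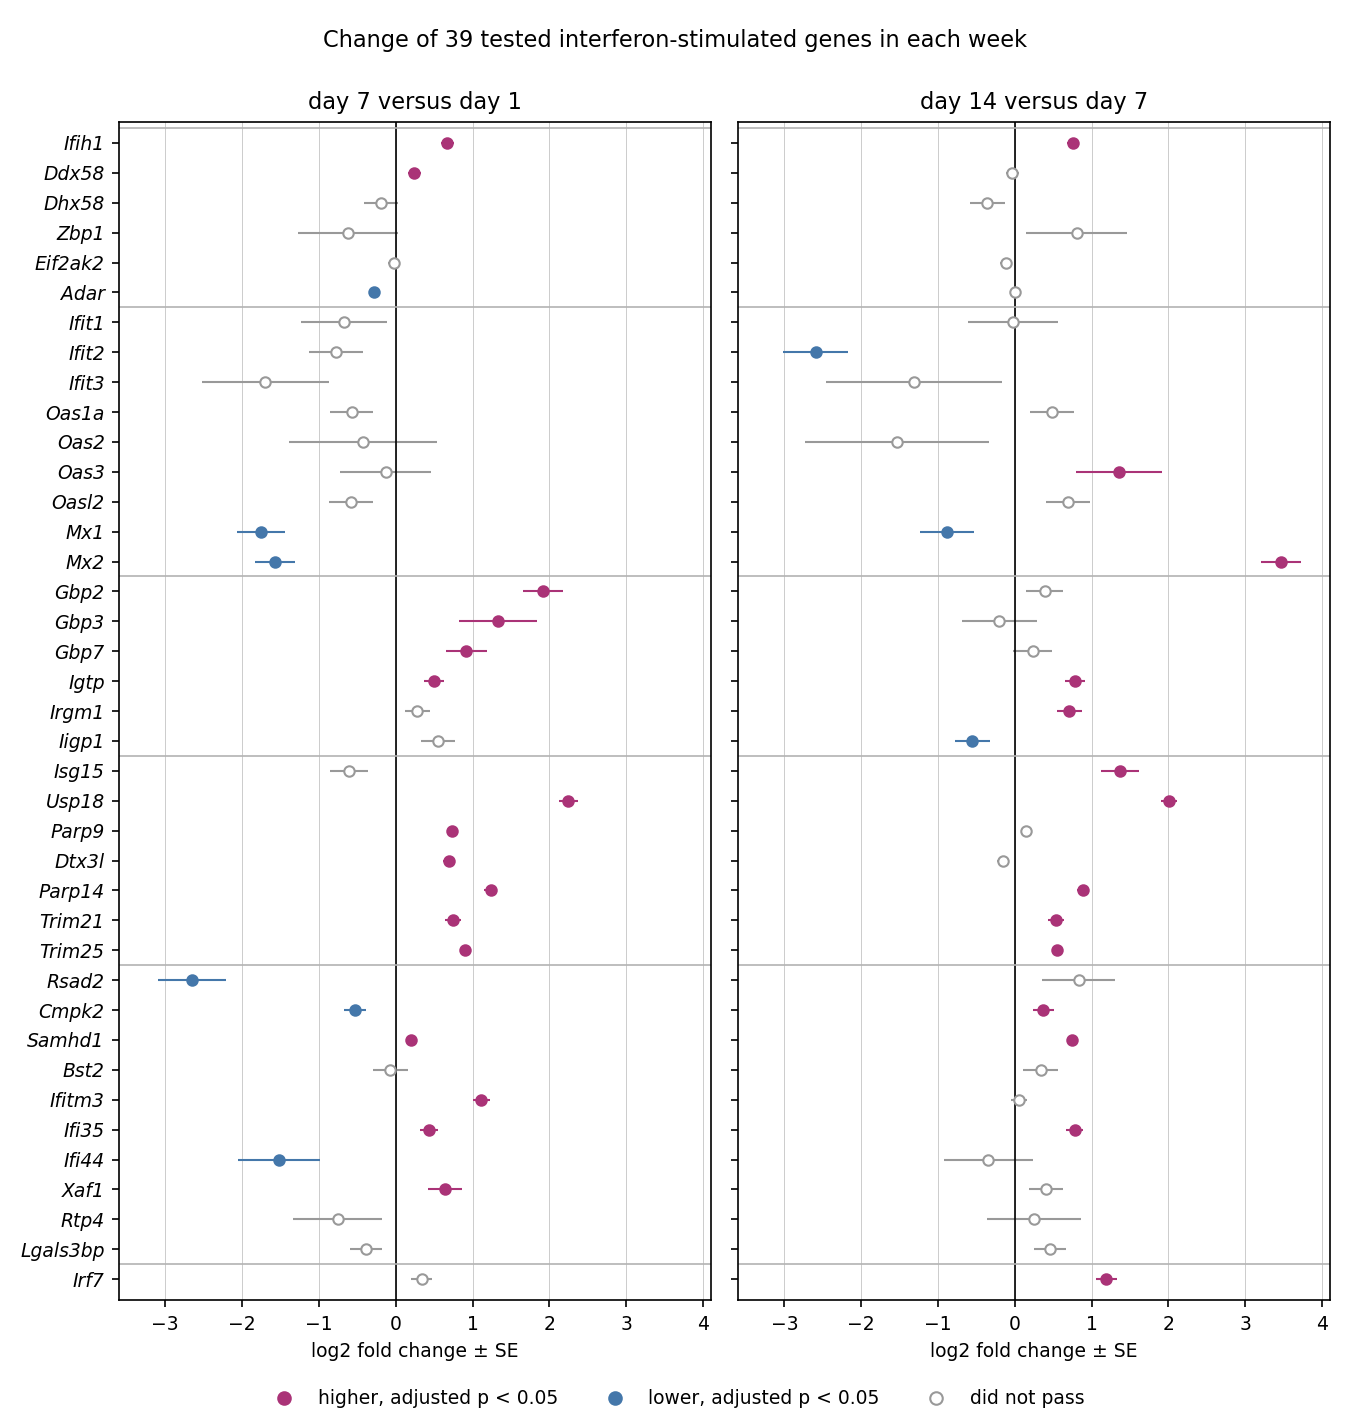
Log2 fold change ± SE of the 39 tested members for day 7 versus day 1 (left) and day 14 versus day 7 (right), by subgroup, with filled points for changes that passed. Filled points of the Isg15, ubiquitin and ADP-ribose genes all lie above 0, while Mx2 lies below 0 on the left and at 3.47 on the right.

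Irf7 (chr7:141263183-141266499), the transcription factor that amplifies type I interferon production, rose in the second week. Its libraries held 3.0, 3.09 and 3.53 CPM at day 1, 4.07, 3.59 and 4.53 at day 7, and 9.71, 7.97 and 10.1 at day 14. No days overlapped, and the larger step was the second. The first-week log2 fold change of 0.34 ± 0.14 did not pass (adjusted p = 0.0582), except without day 1 library 6 or day 7 library 2 (0.0473 and 0.0368). The second was 1.19 ± 0.14 (adjusted p = 7.87e-06). Irf7 overlaps Phrf1 on the opposite strand.

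Of the 10 other antiviral effectors, 4 rose and 3 fell in the first week, beside 25.5% and 24.0% of all genes. In the second week 3 rose and none fell, beside 32.5% and 35.1%. Over the whole span 4 rose and 2 fell, beside 35.5% and 38.4%. The summed level ran from 121 to 141 CPM at day 1, from 216 to 254 at day 7 and from 253 to 283 at day 14. Most of this sum was Ifitm3, with means of 90.3, 195 and 203 CPM. Ifitm3 (chr7:141009590-141010744), a membrane protein that blocks the fusion of entering viruses, had 104, 79.2 and 87.8 CPM at day 1. It had 212, 174 and 201 CPM at day 7 and 213, 211 and 185 at day 14. Both later days were above day 1 and overlapped each other. The first-week log2 fold change was 1.11 ± 0.11 (adjusted p = 2.73e-05) and the second-week one 0.06 ± 0.11 (adjusted p = 0.671).

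Samhd1 (chr2:157097534-157135096), which depletes the nucleotides that viruses need, rose mainly in the second week. It had 19.2, 22.0 and 22.1 CPM at day 1, 23.5, 23.6 and 25.4 at day 7, and 39.2, 41.7 and 40.9 at day 14. No days overlapped. The log2 fold change was 0.20 ± 0.07 in the first week (adjusted p = 0.0293, or 0.0975 without day 1 library 4 and 0.105 without day 7 library 3) and 0.75 ± 0.07 in the second (adjusted p = 9.36e-07). Ifi35, a regulator of innate signalling, had 6.11, 8.12 and 8.09 CPM at day 1, between 9.65 and 10.5 at day 7, and 17.8, 18.5 and 15.5 at day 14. It climbed without overlap by 0.44 ± 0.11 (adjusted p = 0.00707) and then 0.78 ± 0.11 (adjusted p = 5.39e-05). Xaf1, a binding partner of the apoptosis inhibitor Xiap, had 1.27, 0.917 and 1.09 CPM at day 1, 1.71, 1.76 and 1.66 at day 7, and 2.56, 2.53 and 1.73 at day 14. Both later days were above day 1 and overlapped each other. Its rise over the span was 1.05 ± 0.22 (adjusted p = 0.00101). The first-week one (0.64 ± 0.22, adjusted p = 0.0317) did not pass without day 1 library 5 or 6 or any 1 day 7 library (0.0601 to 0.104), and the second-week value (adjusted p = 0.118) passed without day 14 library 6 (0.0419).

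Rsad2 (chr12:26442743-26456452), which encodes viperin, an enzyme that makes a chain terminator of viral RNA, went the other way. It had 0.902, 1.06 and 1.81 CPM at day 1, 0.158, 0.277 and 0.155 at day 7, and 0.280, 0.264 and 0.517 at day 14. Day 1 was above both later days, which overlapped. It fell by 2.66 on the log2 scale in the first week (SE 0.45, adjusted p = 0.000371). Its neighbour Cmpk2, a nucleotide kinase that feeds the same reaction, had means of 4.82, 3.34 and 4.32 CPM. It fell in the first week (-0.53 ± 0.14, adjusted p = 0.00755) and rose in the second (0.37 ± 0.14, adjusted p = 0.0336), and that rise did not pass without day 7 library 1 or 3 or any 1 day 14 library (0.0698 to 0.12). Ifi44 had means of 0.863, 0.300 and 0.233 CPM. Its first-week fall (adjusted p = 0.0318) did not pass without day 1 library 5 or 6 or day 7 library 1 or 3 (0.0549 to 0.158), and that over the span (adjusted p = 0.00849) had an adjusted p of 0.0506 without day 1 library 6. Bst2 (tetherin, which holds budding virus at the cell surface), Rtp4 and Lgals3bp did not pass in any comparison, with means from 0.186 to 2.79 CPM.

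**Figure D4:**
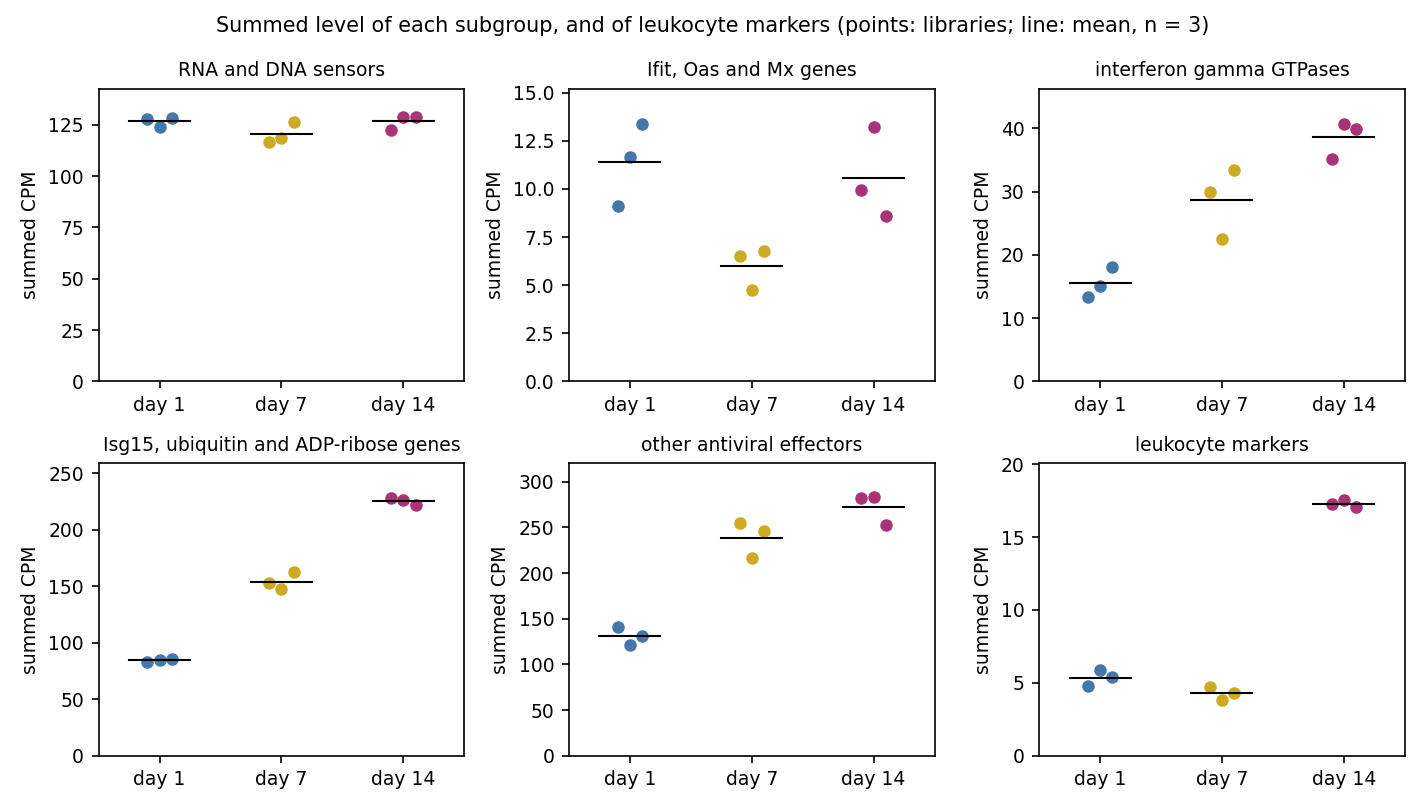
Summed CPM of each subgroup and of 13 leukocyte marker genes, with 1 point per library and a line at the mean (n = 3). The GTPases and the Isg15, ubiquitin and ADP-ribose genes step up at each day, the sensors stay between 117 and 129 CPM, and the leukocyte markers are highest at day 14.

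Within a day, the libraries ranked the members unevenly. At day 1, library 4 held the lowest value for 22 of the 39 tested members (56.4%) and library 6 the highest for 21 (53.8%), where over all genes tested these shares were 35.1% and 29.8%. At day 7, library 2 was lowest for 25 members (64.1%), beside 31.2% of all genes. At day 14, library 5 was highest for 22 (56.4%), beside 27.4%. Among the 9 tested Ifit, Oas and Mx genes, day 1 library 4 was lowest for 7, day 1 libraries 5 and 6 were highest for 4 each, day 7 library 2 was lowest for 6 and day 14 library 5 highest for 6. Among the 6 GTPases, day 1 library 4 was lowest for 4, day 1 library 6 highest for 5, day 7 library 2 lowest for all 6 and day 14 library 5 highest for 5. The 6 sensors differed from this at day 1, where library 4 was lowest for 1 and library 5 for 4. These counts are a description, since members are not independent of each other.

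The calls were set beside the ISRE matches. From day 1 to day 14, 9 of the 17 members with a match rose and 2 fell, and of the 12 tested members with windows but no match, 6 rose and 3 fell. Of all genes tested, 35.5% rose and 38.4% fell. In the first week the counts were 8 and 1 with a match against 5 and 3 without (25.5% and 24.0% of all genes), and in the second 6 and 0 against 5 and 1 (32.5% and 35.1%). Usp18, Parp14, Parp9, Mx1, Mx2, Iigp1, Oas2, Dhx58, Zbp1 and Rtp4 had no window and are in neither set. They include the member with the largest change over the span, Usp18. By subgroup, a match was held by 3 of 4 sensors, 4 of 7 Ifit, Oas and Mx genes, 5 of 5 GTPases, 2 of 4 genes of the Isg15 subgroup and 3 of 9 other effectors. Ifit3 and Rsad2, both printed here with their matches, fell, while Isg15, Gbp2, Igtp and Irgm1 rose over the span.

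The 7 interferon genes listed, Ifnb1, Ifnk, Ifne, Ifng, Ifnl2, Ifnl3 and Ifnz, were at or near 0, and the interferon alpha genes were not analysed here. Ifnb1, Ifne and Ifng had 0 counts in all 9 libraries, which allows up to 3 counts, or from 0.0444 to 0.0599 CPM a library. All 7 summed to at most 0.0995 CPM in a library, and none passed the filter. The receptor subunits were present. Ifnar1 and Ifnar2, which form the type I receptor, had means of 68.1, 62.1 and 44.6 CPM and of 24.6, 20.4 and 13.2 CPM. Over the span they fell by 0.61 and 0.90 on the log2 scale (SE 0.05 and 0.09, adjusted p = 5.35e-07 and 2.52e-06). Ifngr1, the ligand-binding subunit of the interferon gamma receptor, went from 37.5 ± 5.23 to 120.2 ± 7.81 and 247 ± 22.5 CPM (SD, n = 3). It rose by 2.72 ± 0.11 over the span (adjusted p = 7.87e-09). Its partner Ifngr2 had 32.3, 35.8 and 31.3 CPM and fell in the second week alone among the 3 comparisons (-0.20 ± 0.07, adjusted p = 0.0309). Of the 6 receptor subunits listed, 2 rose and 3 fell over the span, beside 35.5% and 38.4% of all genes tested.

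Among 12 Jak, Stat and Irf genes, 6 rose in the first week with none falling, 9 rose and 2 fell in the second, and 9 rose and 1 fell over the span. The shares of all genes tested that rose and fell were 25.5% and 24.0%, 32.5% and 35.1%, and 35.5% and 38.4%. Stat2 and Irf9 did not pass in the first week (adjusted p = 0.437 and 0.105). In the second week Stat2 rose by 0.82 ± 0.08 (adjusted p = 1.62e-06), from 30.3 to 53.5 CPM, and Irf9 by 0.61 ± 0.09 (adjusted p = 6.59e-05), from 35.0 to 53.6 CPM. Among the changed genes of this list with the highest mean CPM were Jak1 (237, 337 and 377 CPM) and Irf1 (215, 168 and 339 CPM). Both rose over the second week, with adjusted p of 0.00255 and 0.0397.

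Of 8 adaptors and kinases of nucleic acid sensing, 7 rose and 1 fell over the span, beside 35.5% and 38.4% of all genes tested. The one that fell was Tmem173, which encodes STING, the adaptor of DNA sensing, named after its values were seen. It had 19.3 ± 4.2, 13.7 ± 2.58 and 1.21 ± 0.268 CPM (SD, n = 3), a log2 fold change of -3.99 ± 0.24 over the span (adjusted p = 2.3e-07). Ikbke, Myd88 and Tbk1, which relay signals from the sensors and Toll-like receptors, rose by 0.83 ± 0.06, 1.09 ± 0.14 and 0.19 ± 0.04 (adjusted p = 1.41e-07, 0.000156 and 0.000947). Of 8 negative regulators, 5 rose and 1 fell over the span, beside the same shares of all genes, 35.5% and 38.4%. Tnfaip3, a brake on NF-kappaB, rose from 91.6 ± 25.7 at day 1 to 733 ± 244 CPM at day 14 (SD, n = 3; adjusted p = 0.00101). Ptpn1, a phosphatase of Jak kinases, rose from 82.5 to 137 CPM (adjusted p = 4.68e-09), and Ptpn11, another phosphatase, fell from 184 to 165 CPM (adjusted p = 0.00373).

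Outside the 40 members, 36 of 51 further interferon-stimulated genes were tested, of which 23 rose and 2 fell in the first week, 15 rose and 9 fell in the second, and 22 rose and 6 fell over the span. Over all genes tested, the shares were 25.5% and 24.0%, 32.5% and 35.1%, and 35.5% and 38.4%. The 3 changed genes of highest mean CPM took different courses. Ifitm2, a neighbour of Ifitm3, had 119.6, 152 and 106 CPM, and Lgals9, a galectin, had 62.3, 157 and 55.0 CPM. Both rose in the first week (adjusted p = 0.000622 and 7.14e-08) and fell in the second (adjusted p = 1.41e-05 and 1.19e-08). Tap1, the peptide transporter of antigen presentation, rose throughout, from 29.6 to 62.8 and 172 CPM. In the class I antigen presentation list, 11 of 12 genes rose from day 1 to day 14 and none fell, beside 35.5% and 38.4% of all genes. H2-K1 went from 21.2 to 209.5 and 1542 CPM (log2 fold change over the span 6.19 ± 0.13, adjusted p = 1.93e-10) and H2-D1 from 132 to 376 and 1259 CPM (3.26 ± 0.08, adjusted p = 1.92e-11). Counts of these near-identical class I genes are uncertain. Pdia3, a chaperone of class I loading, had 536, 570 and 526 CPM and fell in the second week (-0.11 ± 0.04, adjusted p = 0.0389).

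Markers of other cells and of handling also moved with age. The 13 leukocyte markers summed to between 4.76 and 5.87 CPM at day 1, 3.85 and 4.72 at day 7 and 17.1 and 17.6 at day 14. In the second week 8 of the 9 tested rose, beside 32.5% of all genes. Ptprc, which encodes CD45, had at most 9 counts in any library, Siglech had 0 in all 9, and Cd207 had 0 at day 1 and from 34 to 64 counts at day 14. Summed immediate-early and heat-shock genes, a sign of handling, ran from 17422 to 21517 CPM at day 1, from 21765 to 26268 at day 7 and from 33800 to 37181 at day 14. Single genes of this list differed. Of the 10, 3 rose and none fell in the first week, beside 25.5% and 24.0% of all genes. In the second week 7 rose and 2 fell, beside 32.5% and 35.1%, and against a 1.5-fold change 2 rose and 2 fell. Fibroblast markers ran from 122 to 225 CPM at day 1, 17.3 to 61.9 at day 7 and 17.0 to 37.5 at day 14, melanocyte markers from 374 to 401, 106 to 130 and 15 to 19.1, and erythroid markers from 0.244 to 1.66, 11.7 to 41.5 and 1.83 to 5.43. Within their days, fibroblast markers were highest in day 1 library 4 and day 7 library 2, and erythroid markers in the same 2 libraries, which were also lowest for most of the tested members. Day 14 did not share this. Its library 4 was highest for both marker sets but lowest for 13 of the 39 tested members (33.3%, beside 32.3% of all genes). The keratinocyte markers summed to between 48360 and 54573 CPM at day 1, 50171 and 52750 at day 7 and 40061 and 42008 at day 14, so the sum at day 14 was below both earlier days with no overlap. Of these 8 markers, 4 rose and 3 fell in the second week, beside 32.5% and 35.1% of all genes. Their median log2 fold change was 0.17, so the lower sum does not describe every marker. The part of leukocytes, of handling and of other cells in the changes of the members was not tested.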

How the data were processed

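RNA-seq of 9 libraries, 3 for each of postnatal days 1, 7 and 14, was analysed from 1 deposited table. Per the file headers, it holds read counts for each gene. The submitters' processing notes name bcl2fastq (version 2.20.0), Trimmomatic, HISAT2 (2.1.0), StringTie (1.3.4d) and the build mm10. How reads were counted, with which strand setting and gene models, is not given in the sources used here. A further 18 columns (TPM and FPKM) were not used. Columns were assigned to ages by header. Those headed D0, which matches no title, were taken as day 1, since the other ages have their own headers. Headers could not be matched to single titles, so library numbers are those of the headers.

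Counts were tested in R 4.3.3 with edgeR 4.0.16 (filterByExpr, TMM factors, robust quasi-likelihood F test, 1 model over all 9 libraries with day as factor, Benjamini-Hochberg over 14507 genes, adjusted p under 0.05). DESeq2 1.42.0, limma-voom (limma 3.58.1), other scalings and filters, and fits without 1 library were alternatives. Steps were tested on simulated data. CPM are on TMM-scaled libraries, CPM per kb uses the union of exons in the GENCODE M21 basic annotation, and a count of 0 was taken to allow 3 counts, which covers counting error only. Coordinates are those of mm10 (GRCm38.p6). ISRE and GAS letters were searched in RefSeq promoter windows.

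The members and lists were chosen with earlier results of these data known. In each subgroup, the members with the smallest p over the 3 days were given library by library, up to 5 for the Ifit, Oas and Mx genes and the other effectors and up to 4 elsewhere. Of each pathway list, up to 3 changed genes of highest mean level were named, besides Ifnar1, Ifnar2, Ifngr1, Ifngr2, Stat2 and Irf9. Some genes that the rule names are not reported here.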

Additional observations from a re-analysis of the deposited data

How the results depend on the processing

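Over the alternatives without a fold minimum, 16 of 22 member changes from day 1 to day 7, 13 of 17 from day 7 to day 14 and 21 of 26 from day 1 to day 14 passed every time. Of the members that did not pass, 5, 6 and 3 passed in the same direction under at least 1 alternative. In some cases that alternative was another method or scaling. Against a fold of 1.5, the first week had 6 members higher and 3 lower, and the second week 7 higher and 1 lower. The 3 members lower in the second week became 6 with library totals alone and 1 with limma-voom. Leaving out each library in turn gave 12 to 16 higher and 5 to 7 lower in the first week, 12 to 14 and 1 to 3 in the second, and 17 to 20 and 5 to 7 over the span. The count of 1 lower in the second week came without day 1 library 5 or day 14 library 4. With library totals alone, Adar turned to -0.17 in the second week (adjusted p = 0.00216) and Ddx58 to -0.065 from day 1 to day 14 (adjusted p = 0.514). The cause was not tested.

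Header numbers are shared by days 1 and 14 only, and day 7 has other numbers, so no block could be fitted with it. Same-numbered libraries deviated together with correlations of 0.01, 0.01 and 0.10, and the numbers were not taken to pair the samples. With the number as a replicate block, 18 members were higher and 6 lower from day 1 to day 14, against 19 and 7. Ifit3, Oas2, Oasl1 and Zbp1 had at most 18 counts in any library, so depth limits what can be detected in them.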
